A study of Mus musculus with 9 samples.

Results

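The mitotic spindle and checkpoint genes described here are 38 listed genes that run chromosome capture, the spindle checkpoint, anaphase and cytokinesis in dividing cells. They were read on mouse Illumina bead arrays through every probe that the annotation ties to a listed symbol. Of the 38 genes, 35 had at least 1 annotated probe, 54 probes in all, out of 25697 probes and 16593 genes on the array. A probe was used where its signal stood above the negative control beads (detection p under 0.05) on at least 3 of the 9 arrays. That left 29 of the 38 genes, represented by 42 probes, among 10251 genes tested in the series. Aurkb, Ccnb1 and Cenpf were named by no probe of the annotation used here. Bub1, Nek2, Ccnb2, Cenpe and Nuf2 were above background on 0 arrays and Ect2 on 1 array, AFE 2, so these 6 genes entered no comparison.

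Pluripotent mouse stem cells and 2 cell types derived from them in culture were compared, with 3 arrays a group. The ESC group consisted of ES cells without a reporter from the 129P2/OlaHsd strain. The DE group was definitive endoderm from R1 ES cells, a cross of 129X1/SvJ with 129S1/SV-+p+Tyr- cKitlSl-J/+, and the AFE group was anterior foregut endoderm from a 129X1/SvJ background. All groups were sorted by flow cytometry, and no source used here gives the gate. The labels attach 1 culture protocol to every sample. Pluripotent lines were kept on mouse embryonic fibroblasts with LIF, freed of the fibroblasts and plated with 10 µM Y-27632, an inhibitor of the kinase ROCK. They then received 5 nM GSKiXV, a glycogen synthase kinase inhibitor, with 5 µM IDE-1, an inducer of endoderm, from day 2. On day 6 the cells were replated with Y-27632 and given 500 nM A83-01 and 100 nM LDN193189, inhibitors of TGF-beta and BMP receptors. The groups differ in strain background, parental line and sort as well as in cell state, and these cannot be told apart. No label says that the replicates were separate cultures, so a p-value covers the spread among these samples only, and that spread may be technical.

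In a dividing cell, cyclin-dependent kinase 1 with its cyclins starts mitosis, and Aurora and Polo kinases build the spindle. Kinetochores on the centromeres hold spindle fibres, and the checkpoint proteins keep Cdc20 from switching on the anaphase-promoting complex until every chromosome is attached. Transcripts of most of these genes are known to rise late in the cell cycle and to be low in resting cells. The arrays give 1 value for a whole sample, in which fewer cells of a type and less RNA per cell cannot be told apart.

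Many promoters of such genes carry a CHR (cell cycle genes homology region), which the DREAM and MuvB complexes bind, and CCAAT boxes, which NF-Y binds. Both motifs were searched in the promoters of the listed genes, RefSeq windows of the mouse build GRCm38.p6 running from 250 bases before to 50 after a start site. Of the 38 genes, 32 matched an entry, 35 entries in all. The letters TTTGAA, or TTCAAA on the other strand, were in 24 of these 35 entries (68.6%) against 17.9% of all 32851 entries. CCAAT, or ATTGG on the other strand, was in 27 entries (77.1%) against 37.4% of all. Both occurred in 21 entries (60.0%) against 6.95%. TTCGAA was in 3 entries (8.57% against 1.56%) and TTTAAA in 11 (31.4% against 13.2%). A hexamer and CCAAT may share an end base. The hexamers cannot overlap each other. Within 50 bases of the start site, 23 of the 35 entries (65.7%) held TTTGAA against 4.94% of all entries. A match is a description of letters and not a binding site.

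Promoters are shown for the members with the largest median absolute change over the comparisons among those whose sequence could be shown, and for Cdk1, which was added after its values were seen because it holds 2 matches of each motif in the stretch. Each shows the 150 bases before the start site, 5′ to 3′ on the gene's strand, with matches in capitals. Gtse1 lies at chr15:85859557-85859706 on the plus strand, Plk1 at chr7:122159285-122159434 on the plus strand, Cdc20 at chr4:118437344-118437493 on the minus strand, Mad2l1 at chr6:66535071-66535220 on the plus strand and Cdk1 at chr10:69352913-69353062 on the minus strand.
Gtse1: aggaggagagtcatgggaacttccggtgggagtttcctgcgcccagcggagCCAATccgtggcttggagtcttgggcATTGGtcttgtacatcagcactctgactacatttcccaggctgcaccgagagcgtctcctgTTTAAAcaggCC
Plk1: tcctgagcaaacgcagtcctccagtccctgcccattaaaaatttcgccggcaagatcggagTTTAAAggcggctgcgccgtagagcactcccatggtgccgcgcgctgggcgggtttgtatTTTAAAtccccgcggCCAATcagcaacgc
Cdc20: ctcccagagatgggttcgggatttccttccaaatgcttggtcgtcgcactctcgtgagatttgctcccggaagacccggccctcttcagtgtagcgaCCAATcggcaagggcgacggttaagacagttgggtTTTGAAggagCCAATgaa
Mad2l1: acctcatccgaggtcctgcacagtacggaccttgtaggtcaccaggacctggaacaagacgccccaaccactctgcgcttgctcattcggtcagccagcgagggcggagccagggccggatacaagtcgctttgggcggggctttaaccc
Cdk1: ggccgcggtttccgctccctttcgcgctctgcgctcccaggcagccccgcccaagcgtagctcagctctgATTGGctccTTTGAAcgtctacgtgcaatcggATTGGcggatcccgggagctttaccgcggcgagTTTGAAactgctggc
Cdc20 and Cdk1 hold TTTGAA beside CCAAT or ATTGG. Gtse1 and Plk1 hold TTTAAA there, and the closing capitals of Gtse1 begin a CCAAT that crosses the start site. Plk1 has a TTTGAA match after its start site, outside the stretch shown. Mad2l1 has no match in these letters.

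**Figure D1:**
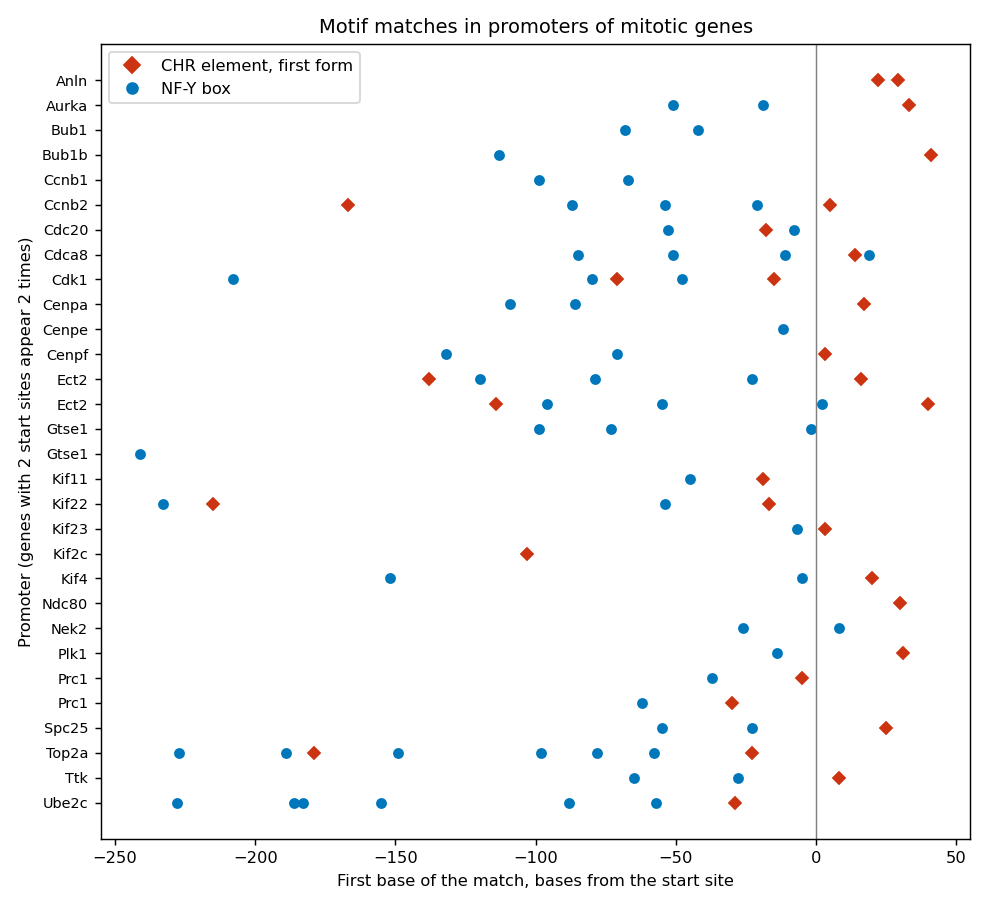
Matches of TTTGAA (diamonds) and CCAAT (circles) on either strand in the promoters of the mitotic genes, by the distance of their first base from the start site in bases. Diamonds gather near the start site, and the entries of Birc5, Mad2l1, Nuf2, Nusap1 and Pttg1, which hold neither, are not drawn.

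Levels below are log2 intensities after background correction and quantile normalization, given for replicates 1, 2 and 3 of each group in that order. They are compared between arrays for 1 probe and never between probes. A change is the fitted difference between group means on the log2 scale ± its SE (limma, 3 arrays in each group). The words rose and fell stand only for a Benjamini-Hochberg adjusted p under 0.05 over all 10251 genes. The SE comes from a spread estimated over all 9 arrays together.

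Cell type markers were checked against the labels. All 7 ES cell markers were above background on every ESC array, with a summed normalized intensity of 85101 to 90571, against 403 to 6072 on the other arrays. All 8 endoderm markers were detected on every DE array, at 12975 to 32648 in sum against 507 to 720 in ESC. Of the 9 foregut markers 5 could be tested and 4 were detected on every AFE array, at 3605 to 4789 in sum against 809 to 1463 in DE and 1230 to 1396 in ESC. Not all of them were highest in AFE: Foxa2 fell by 2.16 ± 0.34 in AFE against DE, and Sox2 fell by 1.26 ± 0.30 in AFE against ESC. Replicates 1 and 2 of a group correlated at 0.987 to 0.995 across genes and either of them with replicate 3 at 0.931 to 0.979. DE 3 stood apart, with a summed endothelial marker level of 20989 against 303 and 348 on the other DE arrays. ESC 3 was the only array on the second slide and carried the highest sum of fibroblast markers. Detected probes numbered 12628 to 14352 per array.

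As a group, the mitotic genes were lowest in definitive endoderm. Relative to each gene's mean over the 9 arrays, the median of the 29 tested members was 0.31, 0.30 and 0.15 on the ESC arrays. It was -0.50, -0.59 and -0.37 on the DE arrays and 0.36, 0.21 and 0.24 on the AFE arrays. Every DE array thus lay below every ESC and AFE array, while ESC and AFE arrays overlapped. DE had the lowest of the 3 group means for 25 of the 29 members (86.2%), against 34.1% of all genes tested. In the moderated F-test of limma, 19 of the 29 members differed among the groups, a count near the share of all genes, 55.7%.

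**Figure D2:**
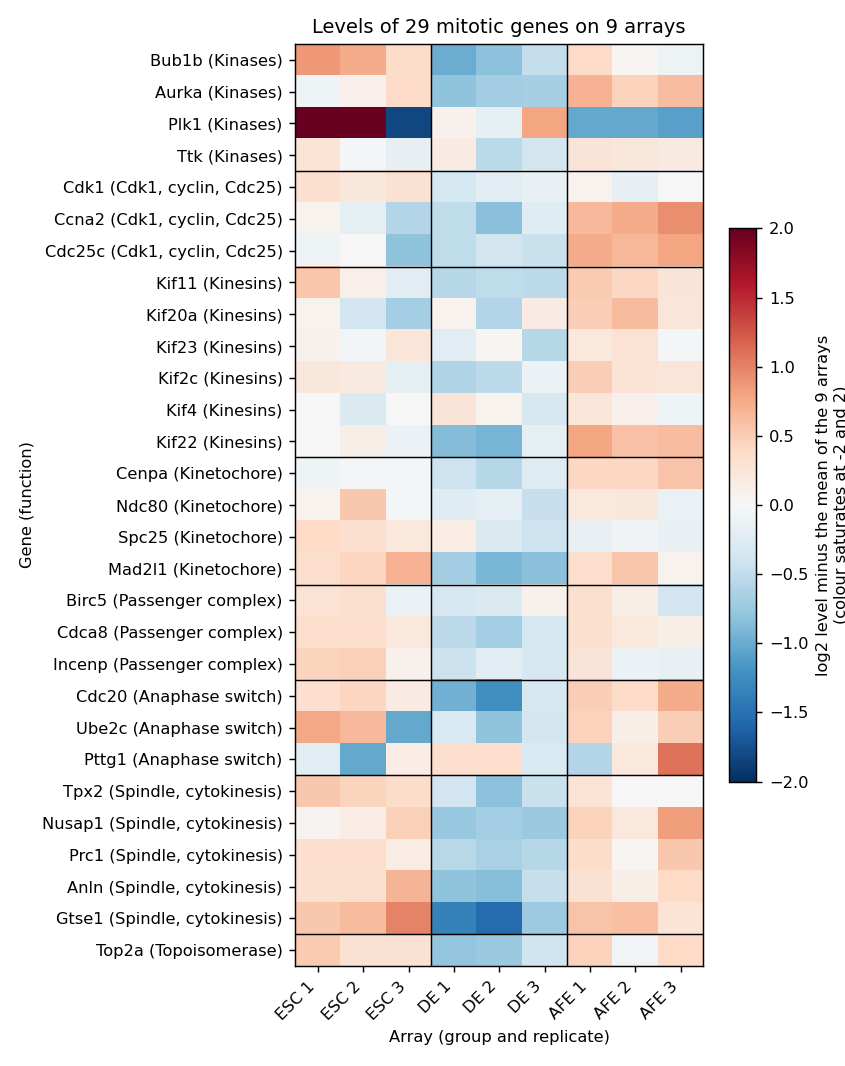
Heat map of the 29 tested mitotic genes, by function, on the 9 arrays, as the log2 level minus the gene's mean over the arrays, with colours saturating at -2 and 2. The DE columns are the lowest for most rows, and the Plk1 row departs from this, with ESC 3 far below ESC 1 and ESC 2.

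The comparison of DE with ESC asked how these genes differ between pluripotent cells and the first endodermal stage. Of the 29 members, 15 fell, 0 rose and 14 did not pass. Among all genes 21.7% fell and 22.2% rose. The median difference of the members was -0.63, against 0.01 over all genes, and 26 of the 29 differences lay below zero, against 49.6% of all genes. With limma at an unadjusted p under 0.05, 19 members were lower and 0 higher. No share of all genes at an unadjusted p stands beside this count or the later ones of its kind. A fall of at least 2-fold was reached by 7 members, beside 13.7% of all genes. In 18 members all DE arrays lay below all ESC arrays, against 28.6% of genes.

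In the comparison of AFE with DE, groups of different strain background, 17 members rose, 0 fell and 12 did not pass. Of all genes, 12.9% rose and 10.1% fell. The members' median difference was 0.85 against 0.07 over all genes, and 8 members rose at least 2-fold beside 6.86% of genes. In 22 members the AFE arrays lay wholly above the DE arrays, against 22.6% of genes, and in no member but Plk1 wholly below. At an unadjusted p under 0.05, limma placed 17 members higher and 0 lower. The DE arrays serve in both comparisons, so a member low on them enters both, and the 2 counts are not independent of each other.

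In AFE against ESC few members passed. Here 5 rose, 0 fell and 24 did not pass, beside 22.8% and 19.3% of all genes that rose and fell. The members' median was 0.06, against 0.08 over all genes. These counts are no higher than the shares of all genes. At an unadjusted p under 0.05, 6 members were higher and 2, Bub1b and Spc25, lower. For 20 of the 24 members that did not pass, the 95% confidence interval of the difference lay within 2-fold in either direction. In 7 members the AFE arrays lay wholly above the ESC arrays and in 3 wholly below, against 31.3% and 26.3% of genes, and 2 members rose at least 2-fold, against 14.5%. The intervals of Bub1b, Plk1, Ube2c and Pttg1 reached past 2-fold.

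Summed markers of other cell types also differed between groups, though in AFE against DE 0 of the 6 fibroblast markers tested passed. Summed over 6 of 8 fibroblast markers tested, the level was 3597 to 7903 in ESC, 200 to 598 in DE and 227 to 1494 in AFE, and 5, 2 and 2 of the 6 were detected on all arrays of the respective group. The 7 of 8 extraembryonic endoderm markers tested summed to 17563 to 23132 in DE, against 304 to 450 in ESC and 1284 to 2419 in AFE, and all 7 were detected on every DE array. The part of feeder cells or extraembryonic endoderm in the mitotic differences was not tested. Without both DE 3 and ESC 3, the arrays that stood apart, 19 members fell and 0 rose in DE against ESC. In AFE against DE 18 rose and 1, Plk1, fell, and in AFE against ESC 5 rose and 2, Plk1 and Bub1b, fell. Of the 9638 genes tested without these arrays, 2074 fell and 2424 rose in DE against ESC. In AFE against DE 1858 rose and 1492 fell, and in AFE against ESC 2602 rose and 2031 fell. The members' counts in AFE against ESC are thus no higher than the shares of all genes.

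**Figure D3:**
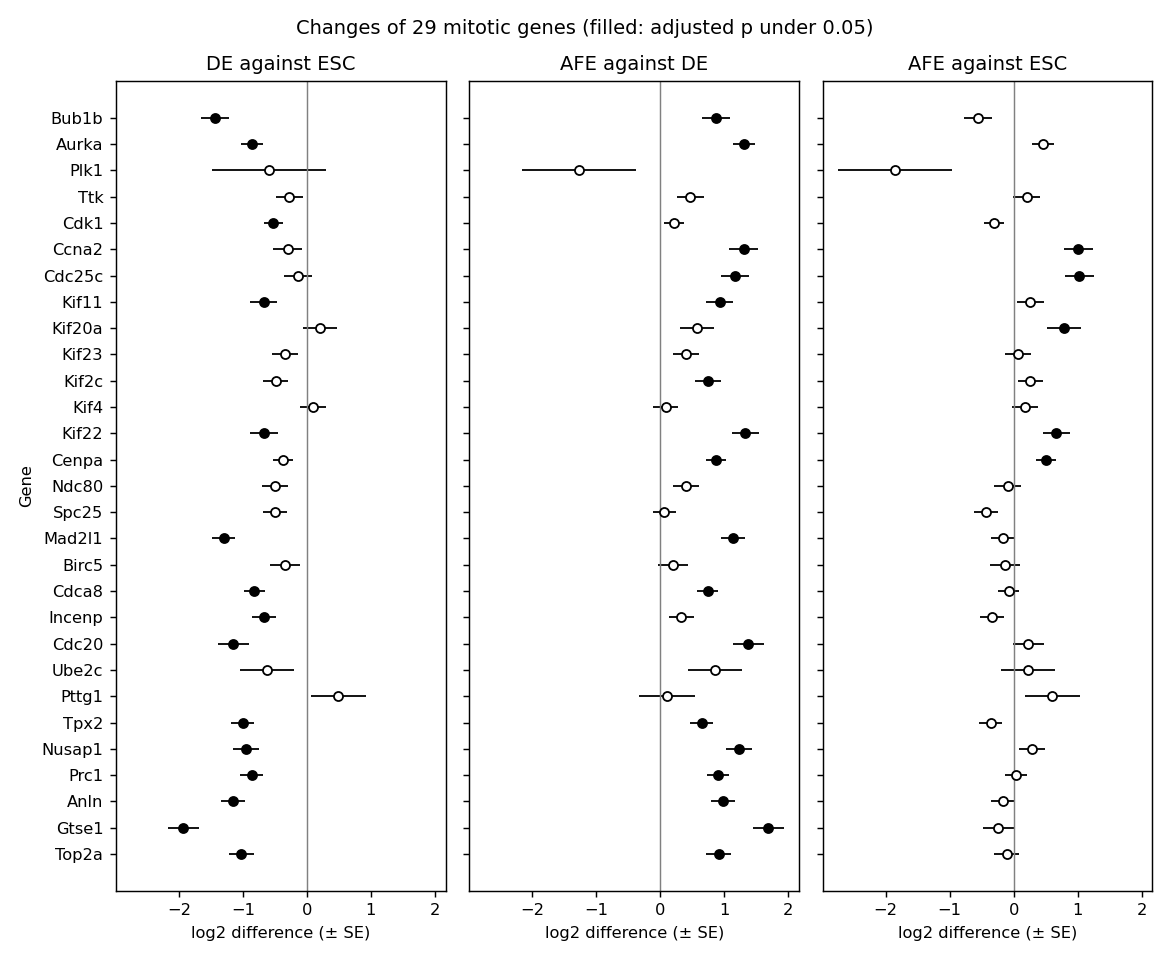
Log2 differences (± SE) of the 29 mitotic genes in the 3 comparisons, 1 row a gene, with filled points at an adjusted p under 0.05. In DE against ESC the filled points all lie left of zero, in AFE against DE right of it, and in AFE against ESC 5 filled points lie right of zero.

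Among the mitotic kinases, 4 of 7 were tested. Of these 2 fell in DE against ESC, in AFE against DE the same number rose, and in AFE against ESC 0 passed with limma, against 1 higher and 1 lower at an unadjusted p under 0.05. Of all genes 21.7% fell in DE against ESC and 12.9% rose in AFE against DE. Bub1b encodes BubR1, the checkpoint protein that holds Cdc20 in check. It stood at 10.56, 10.44 and 10.05 in ESC, at 8.70, 8.86 and 9.21 in DE and at 10.07, 9.73 and 9.58 in AFE. All DE arrays were below all others, and 1 AFE array lay just above the lowest ESC array. Bub1b fell by 1.43 ± 0.22 in DE against ESC (adjusted p = 7.64e-04) and rose by 0.87 ± 0.22 in AFE against DE (adjusted p = 0.0195). That rise did not pass without DE 1, DE 2, AFE 1 or AFE 2 (adjusted p = 0.0761, 0.0646, 0.0693 and 0.0509, over all alternatives 0.00587 to 0.121).

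Aurka, the Aurora kinase of the spindle poles, was at 11.18, 11.37 and 11.64 in ESC, 10.46, 10.57 and 10.60 in DE and 11.95, 11.73 and 11.88 in AFE. The 3 groups did not overlap, with AFE highest. Aurka fell by 0.85 ± 0.17 in DE against ESC (adjusted p = 0.0035) and rose by 1.31 ± 0.17 in AFE against DE (adjusted p = 9.96e-04). Its difference of 0.46 ± 0.17 between AFE and ESC did not pass (adjusted p = 0.0597) and passed without ESC 3 or without DE 3 (0.0326 and 0.049, over all alternatives 0.02 to 0.296).

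Plk1, the Polo kinase that drives centrosome maturation and mitotic entry, was read by 1 probe. Its levels were 12.17, 12.30 and 8.28 in ESC, 10.19, 9.90 and 10.89 in DE and 9.08, 9.07 and 9.02 in AFE. ESC 3 was the lowest of the 9 arrays and ESC 1 and ESC 2 the highest, so the ESC range enclosed both other groups. The SD of Plk1 in ESC, 2.28, was the largest of any member, against a median of 0.22 over members. With all arrays Plk1 passed in no comparison, at -0.59 ± 0.89 in DE against ESC (adjusted p = 0.624), -1.27 ± 0.89 in AFE against DE (0.337) and -1.86 ± 0.89 in AFE against ESC (0.119). Without ESC 3, which leaves the arrays of 1 slide, it fell in all 3 comparisons, with differences of -1.89 (adjusted p = 0.00169), -1.27 (0.0106) and -3.16 (1.74e-04). Over all alternatives the adjusted p ran from 9.15e-05 to 0.978, from 0.00334 to 0.487 and from 1.17e-05 to 0.361. The direction in DE against ESC also turned, with differences from -2.18 to 0.11. Ttk, the checkpoint kinase Mps1, passed nowhere. It ranged from 7.65 to 8.09 in ESC, 7.27 to 7.98 in DE, and its AFE arrays lay within the ESC range.

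Cdk1 and its partners numbered 3 of 5 tested, as neither B cyclin could be. Cdk1, the kinase that starts mitosis, stood at 11.81, 11.72 and 11.79 in ESC, 11.14, 11.26 and 11.35 in DE and 11.57, 11.32 and 11.48 in AFE. ESC was above the other groups, which overlapped. Cdk1 fell by 0.52 ± 0.16 in DE against ESC (adjusted p = 0.0226). This call was lost without ESC 1, ESC 2, ESC 3, DE 1 or DE 2 in turn (adjusted p from 0.0502 to 0.0809, over all alternatives 0.00537 to 0.215). The difference from DE to AFE was 0.21 ± 0.16 and did not pass, with a 95% interval of -0.14 to 0.56.

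Ccna2, cyclin A2, partners Cdk1 and Cdk2 from S phase into early mitosis, and Cdc25c is a phosphatase that removes inhibitory phosphate from Cdk1. Ccna2 was at 7.50, 7.24 and 6.84 in ESC, 6.92, 6.60 and 7.19 in DE and 8.07, 8.17 and 8.36 in AFE. Cdc25c was at 8.45, 8.54 and 7.74 in ESC, 8.04, 8.18 and 8.10 in DE and 9.28, 9.21 and 9.32 in AFE. For both genes the AFE arrays were above all others, and ESC and DE arrays overlapped. In AFE against DE, Ccna2 rose by 1.30 ± 0.23 (adjusted p = 0.0039) and Cdc25c by 1.16 ± 0.22 (adjusted p = 0.00606). Against ESC they rose by 1.01 ± 0.23 (adjusted p = 0.00615) and 1.03 ± 0.22 (adjusted p = 0.00503), the 2 members that rose at least 2-fold there. In DE against ESC their differences were -0.30 ± 0.23 and -0.14 ± 0.22, which did not pass.

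All 6 kinesins, motor proteins that walk along or take apart spindle fibres, were tested. Of them 2 fell in DE against ESC, in AFE against DE 3 rose and in AFE against ESC 2 rose. The shares of all genes, in the same order, were 21.7%, 12.9% and 22.8%, and the 2 counts against ESC are not far from theirs. Kif22, the chromokinesin Kid that pushes chromosome arms to the spindle equator, was at 11.77, 11.88 and 11.65 in ESC. In DE it was at 10.90, 10.83 and 11.57 and in AFE at 12.55, 12.36 and 12.39. No groups overlapped, and DE 3 came closest to ESC. Kif22 fell by 0.66 ± 0.22 in DE against ESC (adjusted p = 0.0324), rose by 1.33 ± 0.22 in AFE against DE (adjusted p = 0.00298) and rose by 0.67 ± 0.22 in AFE against ESC (adjusted p = 0.0326).

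The Kif22 fall was lost without ESC 1, ESC 2, ESC 3, DE 1 or DE 2 in turn (adjusted p from 0.0525 to 0.114, over all alternatives 0.00204 to 0.146). Its rise against ESC was lost without any 1 of the ESC or AFE arrays (0.055 to 0.095, over all alternatives 0.00533 to 0.272). Kif11, the Eg5 motor that pushes spindle poles apart, was at 10.09, 9.63 and 9.30 in ESC, 8.97 to 9.03 in DE and 10.05, 9.94 and 9.78 in AFE. DE lay below both other groups, and ESC spanned AFE. Kif11 fell by 0.67 ± 0.21 in DE against ESC (adjusted p = 0.0282) and rose by 0.93 ± 0.21 in AFE against DE (adjusted p = 0.013). The fall was lost without ESC 1, ESC 2, DE 1 or DE 2 (adjusted p from 0.0634 to 0.108, over all alternatives 0.0101 to 0.194).

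Kif2c, or MCAK, takes spindle fibres apart at kinetochores and corrects wrong attachments. It was at 10.88, 10.84 and 10.48 in ESC, 10.06, 10.14 and 10.54 in DE and 11.15, 10.93 and 10.90 in AFE. ESC and DE overlapped, and AFE lay above both. Kif2c rose by 0.74 ± 0.20 in AFE against DE (adjusted p = 0.0244), a call lost without DE 1, DE 2, AFE 1 or AFE 2 (0.0596 to 0.0931, over all alternatives 0.00456 to 0.106). The difference of -0.49 ± 0.20 in DE against ESC did not pass (adjusted p = 0.0718) and passed without ESC 3 (0.0471) or DE 3 (0.0209), over all alternatives from 0.00893 to 0.21.

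Kif20a, a motor of cytokinesis, was near background, detected on 1 ESC, 2 DE and 3 AFE arrays, at 4.51 to 5.28, 4.61 to 5.36 and 5.44 to 5.83. It rose by 0.78 ± 0.26 in AFE against ESC (adjusted p = 0.0381). This call was lost in 14 of 24 alternatives, whose adjusted p reached 0.727. The arrays whose removal ended it were ESC 2, ESC 3, DE 1, AFE 1 and AFE 2 (0.0503 to 0.126). Kif23, a motor of the central spindle, and Kif4, a chromokinesin, passed in no comparison. Kif4 stayed between 9.58 and 10.16 on all 9 arrays, and its differences of 0.09, 0.08 and 0.18 had 95% intervals within 2-fold.

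Of the centromere and kinetochore genes 4 of 7 were tested. In DE against ESC all 4 had arrays wholly below ESC through their brightest probe, against 28.6% of all genes. Only 1 of the 4, Mad2l1, fell, a count near the share of all genes, 21.7%. Mad2l1 encodes Mad2, which binds Cdc20 at unattached kinetochores. It was at 12.05, 12.14 and 12.39 in ESC, 11.01, 10.80 and 10.87 in DE and 12.06, 12.25 and 11.78 in AFE. DE was below all other arrays, and ESC and AFE overlapped. Mad2l1 fell by 1.30 ± 0.19 (adjusted p = 4.99e-04) and rose by 1.14 ± 0.19 in AFE against DE (adjusted p = 0.00303), with a difference of -0.16 ± 0.19 between AFE and ESC.

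Cenpa, the histone H3 variant that marks centromeres, was at 13.76, 13.82 and 13.82 in ESC, 13.44, 13.28 and 13.58 in DE and 14.25, 14.25 and 14.41 in AFE. The groups did not overlap. Cenpa rose by 0.87 ± 0.16 in AFE against DE (adjusted p = 0.00474) and by 0.51 ± 0.16 in AFE against ESC (adjusted p = 0.0275). The second call was lost without ESC 1, ESC 2 or any AFE array (0.0541 to 0.0896, over all alternatives 0.00498 to 0.244). Its difference in DE against ESC, -0.37 ± 0.16, did not pass (adjusted p = 0.0864, over all alternatives 0.0233 to 0.254) and passed without DE 3 (0.0495).

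Ndc80 and Spc25 belong to the Ndc80 complex, which grips the ends of spindle fibres. Ndc80 ranged from 9.67 to 10.23 in ESC, 9.22 to 9.51 in DE and 9.56 to 9.91 in AFE. Spc25 was at 10.99, 10.92 and 10.81 in ESC, 10.74, 10.30 and 10.19 in DE and 10.44, 10.52 and 10.45 in AFE. Neither gene passed in any comparison, and ESC was the highest group for Spc25. The Spc25 difference in DE against ESC was -0.50 ± 0.18 (adjusted p = 0.0507). It passed without DE 1 (0.0218) or AFE 3 (0.0496), over all alternatives from 0.0218 to 0.287. The other Spc25 probe differed by -0.21 ± 0.19 (adjusted p = 0.413 over all probes), and its DE and ESC arrays overlapped.

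The chromosomal passenger complex carries Aurora B along the chromosomes, and its Birc5 (survivin), Cdca8 (borealin) and Incenp subunits were all tested. Of the 3, 2 fell in DE against ESC, beside 21.7% of all genes. Cdca8 was at 10.46, 10.45 and 10.32 in ESC, 9.59, 9.43 and 9.76 in DE and 10.44, 10.32 and 10.23 in AFE. DE was below every other array, and ESC and AFE overlapped. Cdca8 fell by 0.82 ± 0.16 (adjusted p = 0.00313) and rose by 0.74 ± 0.16 in AFE against DE (adjusted p = 0.0111). The rise was lost without DE 2 (0.052, over all alternatives 0.00397 to 0.122).

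Incenp, the scaffold of the complex, was at 10.79, 10.84 and 10.44 in ESC, 9.93, 10.13 and 10.00 in DE and 10.61, 10.23 and 10.20 in AFE. Its DE arrays were the lowest and did not overlap the other groups, though AFE 2 and AFE 3 were close to them. Incenp fell by 0.67 ± 0.19 (adjusted p = 0.0175), a call lost without ESC 1, ESC 2 or DE 1 (0.0612 to 0.076, over all alternatives 0.00906 to 0.14). Its difference in AFE against DE was 0.33 ± 0.19 (adjusted p = 0.239). Birc5 passed in no comparison through its brightest probe, at -0.34 ± 0.24 in DE against ESC (adjusted p = 0.273). Of its 2 other probes, 1 fell by 0.71 ± 0.22 (adjusted p = 0.0243 over all probes).

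The switch to anaphase was tested through Cdc20, the activator of the anaphase-promoting complex, Ube2c, its ubiquitin-conjugating enzyme, and Pttg1 (securin), which holds back separase. Cdc20 was at 12.96, 13.05 and 12.79 in ESC, 11.66, 11.40 and 12.30 in DE and 13.11, 13.01 and 13.37 in AFE. DE lay below both other groups, with DE 3 nearest to them. Cdc20 fell by 1.15 ± 0.24 in DE against ESC (adjusted p = 0.00406) and rose by 1.38 ± 0.24 in AFE against DE (adjusted p = 0.00403). All 4 of its probes did so, with differences of -1.87 to -1.15 and then of 1.03 to 1.38.

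Ube2c was at 9.50, 9.37 and 7.70 in ESC, 8.42, 7.92 and 8.35 in DE and 9.19, 8.85 and 9.22 in AFE. ESC 3 was the lowest of all 9 arrays, as for Plk1. Ube2c passed in no comparison with all arrays, at -0.63 ± 0.42 (adjusted p = 0.257) and 0.85 ± 0.42 (0.176) in the first 2 comparisons. Without ESC 3 it fell by 1.20 in DE against ESC (adjusted p = 0.00439) and rose by 0.85 in AFE against DE (0.019). Over all alternatives the values ran from 0.00342 to 0.628 and from 0.0133 to 0.437. Pttg1 was dim and scattered, from 4.98 to 6.16 in ESC, 5.70 to 6.36 in DE and 5.42 to 7.09 in AFE. It was detected on 2 of 3 ESC arrays, and its groups did not differ beyond their spread.

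Of the 6 spindle assembly and cytokinesis genes 5 were tested. Through their brightest probes all 5 fell in DE against ESC, beside 21.7% of all genes. Through the same probes all 5 rose in AFE against DE, beside 12.9%. In AFE against ESC 0 of these probes passed with limma, adjusted or unadjusted, where the differences ran from -0.36 to 0.28. A dimmer probe of Gtse1 and of Anln did not pass in AFE against DE and fell in AFE against ESC. Gtse1, which steadies spindle fibres and restrains p53 in G2, was at 11.96, 12.05 and 12.41 in ESC, 10.06, 9.87 and 10.69 in DE and 11.99, 12.01 and 11.69 in AFE. All DE arrays were below all others, and ESC and AFE overlapped. Gtse1 fell by 1.93 ± 0.24 (adjusted p = 2.51e-04) and rose by 1.69 ± 0.24 (adjusted p = 0.00152), the largest change of any member in both comparisons.

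Anln (anillin) builds the contractile ring. It was at 11.82, 11.83 and 12.18 in ESC, 10.70, 10.65 and 11.04 in DE and 11.81, 11.62 and 11.90 in AFE. Only the DE arrays stood apart. Anln fell by 1.15 ± 0.19 (adjusted p = 0.00109) and rose by 0.98 ± 0.19 (adjusted p = 0.0063). Nusap1, which bundles spindle fibres around chromosomes, was at 11.71, 11.81 and 12.13 in ESC, 10.91, 10.98 and 10.91 in DE and 12.13, 11.87 and 12.51 in AFE. Its DE arrays were the lowest and tightly grouped. Nusap1 fell by 0.95 ± 0.20 (adjusted p = 0.00461) and rose by 1.23 ± 0.20 (adjusted p = 0.0032).

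Tpx2 activates Aurora A on the spindle. It was at 10.85, 10.75 and 10.68 in ESC, 9.92, 9.50 and 9.86 in DE and 10.58, 10.31 and 10.32 in AFE. The 3 groups did not overlap, with AFE between ESC and DE. Tpx2 fell by 1.00 ± 0.18 (adjusted p = 0.00181) and rose by 0.65 ± 0.18 (adjusted p = 0.0292). The rise was lost without ESC 2, DE 1, DE 2, AFE 1 or AFE 2 (0.0513 to 0.117, over all alternatives 0.0144 to 0.24).

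Prc1, which crosslinks the fibres of the central spindle, was at 12.84, 12.85 and 12.66 in ESC, 11.95, 11.87 and 11.94 in DE and 12.87, 12.54 and 13.05 in AFE. DE was lowest, and ESC lay within the AFE range. Prc1 fell by 0.86 ± 0.18 (adjusted p = 0.00366) and rose by 0.90 ± 0.18 (adjusted p = 0.00696), with 0.04 ± 0.18 between AFE and ESC. Top2a, the topoisomerase that untangles sister chromatids, was at 11.85, 11.62 and 11.62 in ESC, 10.53, 10.59 and 10.92 in DE and 11.78, 11.26 and 11.72 in AFE. Again only DE stood apart. Top2a fell by 1.02 ± 0.20 (adjusted p = 0.00288) and rose by 0.91 ± 0.20 (adjusted p = 0.011).

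Several genes were read by more than 1 probe, which checks a call on the same samples. For 8 members with several probes above background, 7 of 24 pairs of gene and comparison were not called alike by all probes, and in 3 pairs the probes differed in sign. The second probe of Gtse1 was at 10.41, 10.22 and 10.16 in ESC, 8.31, 8.91 and 8.35 in DE and 9.23, 9.11 and 8.65 in AFE. It fell by 1.74 ± 0.23 in DE against ESC (adjusted p = 2.84e-04), as the brightest probe did. In AFE against DE it did not pass, at 0.48 ± 0.23 (adjusted p = 0.167), and in AFE against ESC it fell by 1.26 ± 0.23 (adjusted p = 0.0018). Anln showed the same split. Its dimmer probe fell by 1.24 ± 0.25 in DE against ESC, differed by 0.25 ± 0.25 in AFE against DE (adjusted p = 0.51) and fell by 0.99 ± 0.25 in AFE against ESC (adjusted p = 0.00929). For Nusap1, 2 of 3 probes fell and rose, and the dimmest did not pass, at -0.42 ± 0.27 and 0.44 ± 0.27. Which transcripts each probe reads was not analysed here.

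**Figure D4:**
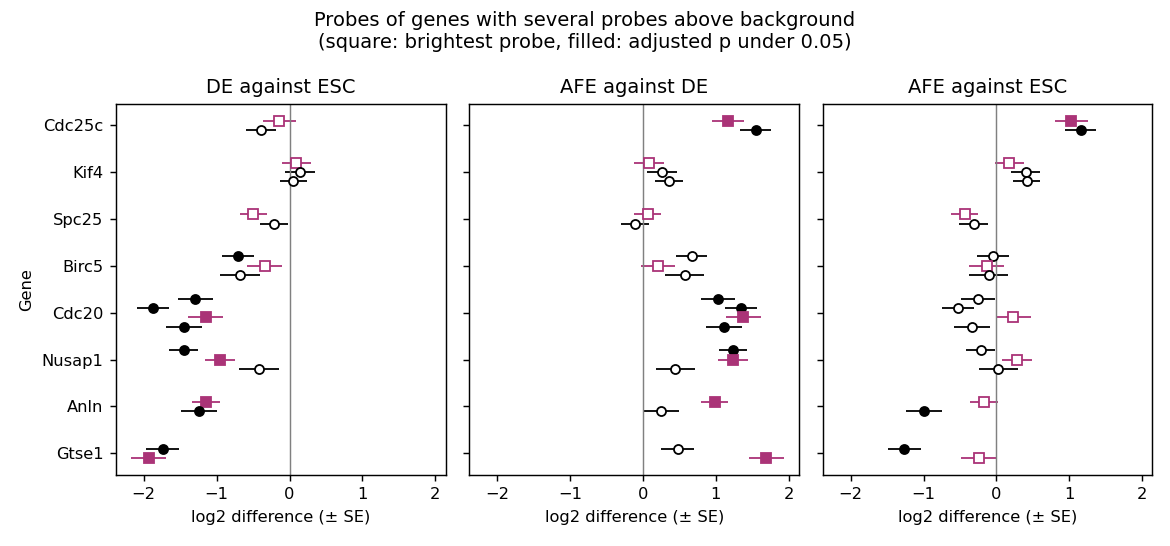
Log2 differences (± SE) of each probe of the 8 genes with several probes above background, in the 3 comparisons, with squares for the brightest probe and filled points at an adjusted p under 0.05. The 4 Cdc20 probes agree in both comparisons with DE, while the dimmer probes of Gtse1 and Anln, at 0.48 and 0.25, did not pass in AFE against DE and lie below zero in AFE against ESC.

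Genes that work beside the members were counted in further lists. Of 48 other mitosis genes 34 were tested. Of these, 18 fell and 1 rose in DE against ESC, in AFE against DE 15 rose and 1 fell, and in AFE against ESC 6 rose and 10 fell, with medians of -0.68, 0.65 and -0.07. The shares of all genes, in the same order, were 21.7% and 22.2%, 12.9% and 10.1%, and 22.8% and 19.3%. Kif18a, a kinesin that damps chromosome swings, fell by 1.60 ± 0.18 and rose by 1.52 ± 0.18. Zwilch, a kinetochore checkpoint protein, fell by 2.16 ± 0.27 in DE against ESC, Cep55 of the midbody fell by 1.85 ± 0.18, and Ccnf, cyclin F, fell by 1.77 ± 0.25. Mad2l2, a relative of Mad2, was the 1 with the opposite direction in AFE against DE, where it fell by 1.48 ± 0.33. Pimreg was the 1 that rose in DE against ESC, by 1.15 ± 0.22, and it rose by 1.84 ± 0.22 in AFE against ESC.

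Structural and regulatory partners were counted against the same shares of all genes, 21.7% fallen and 22.2% risen in DE against ESC and 12.9% risen in AFE against DE. Of 10 tested genes named as centromere proteins, 6 fell and 1 rose in DE against ESC, and 3 rose in AFE against DE. Cenpm fell by 2.00 ± 0.33 in DE against ESC, and the 1 that rose there was Cenpj, by 0.88 ± 0.24. Of 12 tested subunits and partners of the anaphase-promoting complex, 2 fell and 2 rose in DE against ESC, and 2 rose in AFE against DE. Condensin and cohesin genes, 13 tested, gave 4 falls and then 2 rises. Of 7 regulators of mitotic entry, 1 fell and 1 rose, and 3 rose in AFE against DE, Wee1 by 1.15 ± 0.36 among them. In DE against ESC the counts for the anaphase-promoting complex and for mitotic entry are not above those shares, and the 2 risen condensin and cohesin genes are near the share in AFE against DE.

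Among 17 tested transcriptional regulators of mitotic genes, 7 fell in DE against ESC, 4 rose in AFE against DE, and in AFE against ESC 2 rose and 5 fell. The shares of all genes, in the same order, were 21.7%, 12.9%, 22.8% and 19.3%. Mybl2, B-Myb, which works with the MuvB complex at such promoters, was at 11.37, 11.22 and 11.57 in ESC, 9.23, 9.43 and 9.53 in DE and 9.53, 9.81 and 9.50 in AFE. It was high in ESC alone, and DE and AFE overlapped. Mybl2 fell by 1.99 ± 0.18 in DE against ESC (adjusted p = 3.39e-05) and fell by 1.77 ± 0.18 in AFE against ESC (adjusted p = 6.9e-05), and its difference of 0.22 ± 0.18 in AFE against DE did not pass (0.42). Foxm1, the forkhead activator of late cell cycle genes, ranged from 8.47 to 9.13 on all arrays and passed nowhere. Nfyb, a histone-fold subunit of NF-Y, fell by 1.67 ± 0.18 in DE against ESC, rose by 1.08 ± 0.18 in AFE against DE and fell by 0.59 ± 0.18 in AFE against ESC. The other NF-Y subunits, Nfya and Nfyc, passed in no comparison, with differences from 0.11 to 0.54 and from 0.01 to 0.10. Of the 13 members that fell in DE against ESC and have a promoter entry, 10 hold TTTGAA and 10 hold CCAAT. Of the 11 that did not pass and have one, 9 and 7 do.

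Genes of DNA replication were counted beside them. Of 20 tested S phase genes, 7 fell in DE against ESC, 0 passed in AFE against DE with limma and 5 fell in AFE against ESC, with medians of -0.49, 0.19 and -0.47. Of all genes, 21.7% fell in DE against ESC and 19.3% in AFE against ESC, and the 5 fallen S phase genes are near the latter share. At an unadjusted p under 0.05, 3 of the 20 were higher and 0 lower in AFE against DE. Mcm7, a subunit of the replicative helicase, fell by 1.35 ± 0.27 in DE against ESC and by 1.34 ± 0.27 in AFE against ESC. On AFE 3 the list's median relative to each gene's mean was -0.88, against 0.11 and 0.22 on the other AFE arrays. The members had no such gap between AFE arrays. Whether mitotic and S phase genes differ in their change was not tested.

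Of 7 tested G1 cyclins and kinases, 3 fell in DE against ESC and 2 rose in AFE against DE, beside 21.7% and 12.9% of all genes. Ccnd1, cyclin D1, fell by 2.31 ± 0.39 and rose by 1.78 ± 0.39, and Ccnd2, cyclin D2, rose by 2.20 ± 0.36. Of 7 inhibitors of cyclin-dependent kinases, 1 fell in DE against ESC, and 1 rose and 1 fell in AFE against DE. These counts are near the shares of all genes, 21.7%, 12.9% and 10.1% in the same order. Cdkn1c, the inhibitor p57, rose by 2.84 ± 0.79 in AFE against DE, with DE arrays at 10.01, 10.05 and 13.51, so DE 3 lay apart near the AFE range of 13.70 to 14.49. Cdkn2b, the inhibitor p15, fell by 1.96 ± 0.33.

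**Figure D5:**
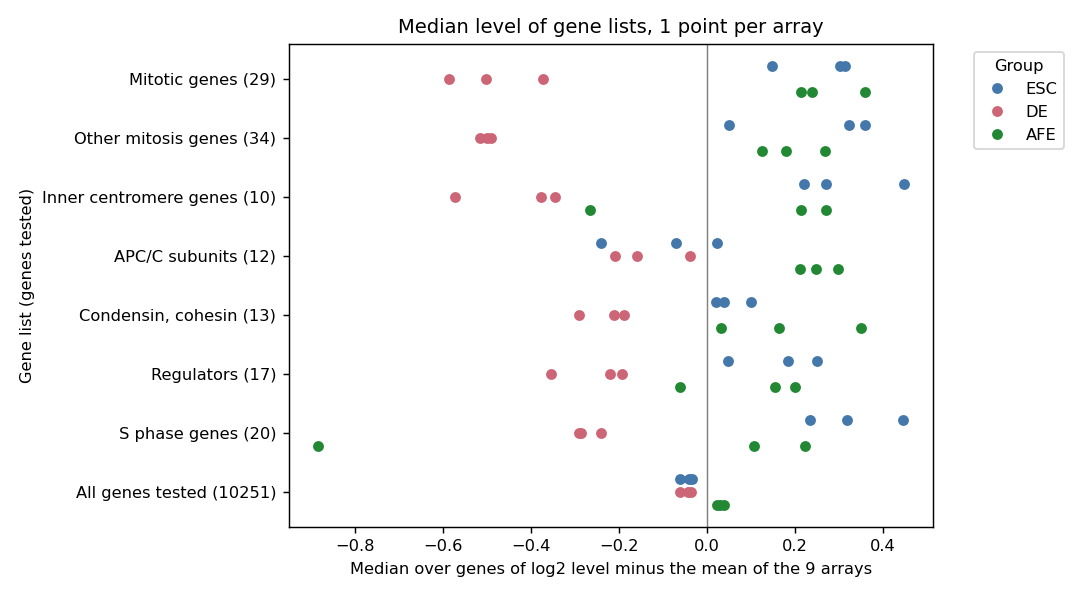
Median over the genes of each list of the log2 level minus the gene's mean over the 9 arrays, 1 point per array, coloured by group. For the 29 members and the other mitosis genes the 3 DE points lie left of all ESC and AFE points, and for S phase genes AFE 3 is the lowest point, at -0.88.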

How the data were processed

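RNA of 9 samples was measured on Illumina bead arrays, 3 arrays each for ESC, DE and AFE. The deposited intensity of a probe is a linear bead signal that was not normalized, per the file headers. Its deposited detection p-value sets that signal against negative control beads, per the file headers. A processed table holds log2 values of the authors, made in a way not stated in the labels. There, 7 columns rank the probes as the intensities of the same sample do, and 2 ESC columns do not, so it served as an alternative only.

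R 4.3.3 with limma 3.58.1 was used. Its neqc function estimated the background from the detection p-values and gave quantile-normalized log2 levels with an offset of 16. Of 25697 probes, 23978 carried 1 gene symbol and 1719 none, and 23962 matched the gene table. The filter left 15090 probes, 14206 with a symbol, and the brightest stood for its gene. A limma model of the 3 groups was fitted to all 10251 genes, with eBayes and Benjamini-Hochberg adjustment. The number of arrays limits the precision.

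The members and lists were chosen with earlier results of these data known. All members are accounted for. Full statistics go to the 6 largest rises and falls per comparison and to the largest change of each functional group, and from each other list up to 4 called genes of largest change may be named. Mybl2 and Foxm1 are given as regulators of the members, Foxm1 after its values were seen. The fit was tested on simulated data. Alternatives covered background, normalization, filter, probe choice, moderation, slide and replicate blocks and each array left out. Figures were drawn with matplotlib 3.10.9.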

Additional observations from a re-analysis of the deposited data

How the results depend on the processing

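In DE against ESC the fallen members numbered 11 to 17 and the risen 0 with 1 array left out, with medians of -0.73 to -0.50. In AFE against DE 13 to 18 rose and 0 to 1 fell, with medians of 0.71 to 0.91, and in AFE against ESC 2 to 6 rose and 0 to 2 fell, with medians of -0.02 to 0.17. The F-test passed 16 to 20 members. Calls over all genes moved too with 1 array left out. In DE against ESC 1465 to 2440 genes fell and 1669 to 2518 rose. In AFE against DE 750 to 1719 rose and 617 to 1409 fell. In AFE against ESC 1717 to 2786 rose and 1289 to 2354 fell. No count of all genes stands beside the F-test range or the calls that held in all alternatives. Of 2088 gene results under 24 alternatives, 1924 stayed on their side of the threshold, 103 lost and 61 gained a call, and 0 reversed a call. Calls that held in all 24 numbered 6 of 15, 10 of 17 and 0 of 5. Median scaling moved the median of all genes by 0.093 in DE against ESC, by -0.19 in AFE against DE and by -0.081 in AFE against ESC. It gave 11 risen members and a median of 0.57 in AFE against DE, beside 652 risen of all 10251 genes (1322 in the main fit). In AFE against ESC it gave 2 risen members, 1 fallen and a median of -0.0597, beside 1764 risen and 2004 fallen genes. It moved AFE against DE to 0.57 for Bub1b, 0.45 for Cdca8, 0.49 for Kif2c and 0.37 for Tpx2. The mean of probes gave 1.08 for Gtse1 and 0.62 for Anln there. The median in AFE against DE was 0.71 without background correction and 0.65 without a filter. The authors' processed table gave 9 fallen in DE against ESC, 11 risen and 1 fallen in AFE against DE and 2 risen and 1 fallen in AFE against ESC. Calls over all genes were also fewer in that table. Of 10251 genes, 306 fell in DE against ESC (2227 in the main fit). In AFE against DE 392 rose and 491 fell (1322 and 1036), and in AFE against ESC 699 rose and 636 fell (2342 and 1977). Its matching columns alone gave 1 fallen in AFE against DE, and 0 risen, 1 fallen and a median of -0.15 in AFE against ESC. A single member, Plk1, fell in AFE against DE with the 6 arrays compared or the slide as a block. In AFE against ESC 2 fell without background correction, with the slide as a block, with the mean of probes and with each probe, whose median was -0.0604, and 1 with normexp at an offset of 50. Without DE 3 and ESC 3, a choice made after seeing the data, the median in DE against ESC was -0.78, and 1 and 2 members fell in the comparisons of AFE. The causes of these shifts were not tested.

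No pairing by replicate number was seen. Deviations of same-numbered arrays correlated at -0.14 to 0.07 and those of differently numbered arrays at -0.08 to 0.11. These correlations cannot exclude a shared preparation, on which the labels are silent. With the replicate block 14 members fell in DE against ESC, 16 rose in AFE against DE and 4 rose in AFE against ESC, against 15, 17 and 5 without it, and the F-test passed 16 against 19. The calls lost among the members were Kif22 in both comparisons with ESC and Kif2c in AFE against DE. Of all genes 2127, 1126 and 2231 were so called with the block, against 2227, 1322 and 2342 without it.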

Other observations

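In the processed table the column labelled ESC 3 ranked the probes exactly as the intensities of ESC 2 (Spearman correlation across probes 1), and its correlation with the intensities of ESC 3 was 0.94. The column labelled ESC 2 ranked as no intensity column, at 0.88 with its own and at most 0.926, with DE 2.

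On single arrays, few members lay at least 2-fold from the mean of the other arrays of their group. On ESC 3, Plk1 and Ube2c did so, both lower, a count near the share of all genes, 4.31%. On ESC 1, ESC 2, AFE 1 and AFE 3, 1 member each did, beside 0.507%, 0.634%, 2.94% and 9.49% of all genes. On DE 3, 0 of 29 members did, while 15.6% of all genes tested did.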
